A study of Mus musculus with 6 samples.

Results

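Cholesterol handling was examined through 32 genes, chosen by name for their part in making cholesterol, moving it or sensing it. Probes were taken by the gene symbol that the array's annotation gives them. Of the 32 genes, 27 had at least 1 probe of that symbol, with 53 probes in all. At least 1 probe was detected on 3 or more arrays, whichever their group, for 25 genes, and these were tested. Acat2, Hmgcs1, Fdft1, Soat1 and Nr1h2 had no matched symbol and were not analysed here. Abca1 and Ggps1 had probes, but none was detected on any array.

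The study measured gene expression on 6 Illumina bead arrays of Sertoli cells, the somatic cells that nurse germ cells in the seminiferous tubule, taken from mice of 6 weeks on a mixed C57B6J/129SvEv background. In 3 arrays the genotype was Rb1 flox/- with Amh-Cre + (cKO). In the 3 control arrays it was Rb1 flox/- without that Cre. Rb1 encodes the retinoblastoma protein, a brake on the cell cycle, and the Amh promoter is active in Sertoli cells. Controls therefore carry 1 Rb1 null allele themselves, and only the cKO mice carry Cre, so that an effect of Cre cannot be told apart from loss of the floxed allele. Cells of both groups were labelled by Sox9-GFP and sorted by fluorescence. Whether each array stands for a mouse of its own is not in the labels. A p-value here measures only the spread between the 6 samples, and some of that spread may be technical.

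Animal cells make cholesterol from acetyl-CoA through mevalonate, isoprenoid units and squalene, whose closed ring is then trimmed to the final sterol. SREBP transcription factors switch the pathway on when membrane cholesterol is low: SCAP escorts them out of the endoplasmic reticulum, and INSIG proteins hold them back. LXR receptors answer to surplus sterol and switch on exporters. In the testis, Sertoli cells take up lipid from engulfed germ cells and supply the tubule, while the interstitial Leydig cells use cholesterol for testosterone.

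Promoter sequences are shown for 3 members among the 5 with the smallest p-values, as examples of the letters the pathway's promoters share. They are RefSeq sequences of the GRCm38.p6 assembly, read 5′ to 3′ on the gene's strand, from 250 bases before the annotated start to 50 bases after it. Capitals mark the NF-Y box, CCAAT or its reverse complement ATTGG, the letters bound by a factor that works beside SREBP. The Insig1 promoter lies at chr5:28071162-28071461 on the plus strand, the Mvk promoter at chr5:114444019-114444318 on the plus strand, and the Lbr promoter at chr1:181842352-181842651 on the minus strand.
Insig1: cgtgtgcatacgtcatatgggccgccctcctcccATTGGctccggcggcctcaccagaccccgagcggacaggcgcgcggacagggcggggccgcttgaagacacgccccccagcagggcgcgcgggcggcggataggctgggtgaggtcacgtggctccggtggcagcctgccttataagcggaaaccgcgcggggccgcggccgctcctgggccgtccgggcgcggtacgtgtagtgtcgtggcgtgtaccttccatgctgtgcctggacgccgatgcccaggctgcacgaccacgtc
Mvk: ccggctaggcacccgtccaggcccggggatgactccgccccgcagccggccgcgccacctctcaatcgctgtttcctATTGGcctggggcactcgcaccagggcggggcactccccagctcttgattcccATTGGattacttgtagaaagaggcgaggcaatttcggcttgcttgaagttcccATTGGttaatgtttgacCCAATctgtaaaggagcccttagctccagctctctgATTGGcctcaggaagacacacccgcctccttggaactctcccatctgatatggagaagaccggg
Lbr: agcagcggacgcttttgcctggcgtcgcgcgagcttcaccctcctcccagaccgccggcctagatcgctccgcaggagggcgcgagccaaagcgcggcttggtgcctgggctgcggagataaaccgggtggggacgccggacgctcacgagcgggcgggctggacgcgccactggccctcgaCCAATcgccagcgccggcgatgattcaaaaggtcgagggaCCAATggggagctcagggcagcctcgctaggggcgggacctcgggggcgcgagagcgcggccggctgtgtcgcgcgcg
The Insig1 stretch holds 1 box, the Lbr stretch 2 and the Mvk stretch 5.

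The promoter table held 26 of the 32 genes, and Sqle, Fdps, Fdft1, Stard4, Abcg1 and Npc1 were not in it. An NF-Y box on either strand was present for 21 of the 26 genes (80.8%), against 41.1% of all 27025 genes of the table, whose promoters have the same length. Among members with a tested probe and a promoter it was present in 18 of 20, against 42.8% of 9932 tested genes. The SRE-1 sterol element in its full classical form was found in 0 of 26 (0.0999% of all genes of the table). The shorter form TCACNCCAC, which every match of the full form also contains, was found in 1, Hmgcs1 (3.85%, against 1.44% of all genes of the table). The LXR element, AGGTCA repeated after a gap of 4 bases, was found in 0 of 26 and in 0.0148% of all genes of the table. Matches are letters in a fixed window and describe no binding.

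The arrays differed in ways the groups do not explain. The share of probes detected ran from 42.98% to 53.48%, both extremes being single arrays: cKO replicate 1 was the lowest and control replicate 3 the highest. On control replicate 3, 972 probes (2.15% of all) stood more than 2 log2 units above every other array, and each of the others had 24 or fewer such probes. On cKO replicate 1, 435 probes stood that far below all other arrays, and on the others 16 or fewer did. Results are therefore also given without these 2 arrays. The targeted gene was lower in cKO on both of its probes. Rb1 probe ILMN_2679619 read 8.24, 7.73 and 7.44 in cKO (arrays in replicate order, here and throughout) against 9.10, 9.34 and 8.64 in controls, a difference of -1.22 ± 0.32 (SE, n = 3 and 3; limma adjusted p 0.399). Probe ILMN_2861644 gave -0.98 ± 0.34 (limma adjusted p 0.668), and the groups did not overlap on either probe. Whether a probe lies in the deleted part of the gene is unknown here. The Sertoli markers Cldn11 (14.40 to 14.61) and Sox9 (11.48 to 12.20, brightest probe) were detected on every array. A dimmer Sox9 probe read 6.14, 7.71 and 8.32 in cKO and 8.03, 8.40 and 9.39 in controls. Amh, Trf and Dmrt1 were each detected on 2 cKO arrays and 3 controls. The other tested Sertoli markers were detected on every array by their brightest probe.

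No cholesterol gene passed the test. Values are log2 intensities after background correction and quantile normalisation, and each gene is represented by its brightest tested probe. Differences are cKO minus control, in log2 units, so that 1 unit is a doubling. At a Benjamini-Hochberg adjusted p under 0.05 over all 21805 tested probes, limma called 0 of the 25 genes, and the smallest adjusted p was 0.579; over all tested probes 0.142% were called higher and 0% lower. Before adjustment, limma's p was under 0.05 for 5 of 25 genes, all on the higher side (Stard4, Insig1, Abcg1, Mvk and Lbr), and for 0 on the lower side, against 4.63% and 1.76% of all tested probes. With 1 probe per gene, as for the members, it was so for 786 and 248 of 12277 genes.

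Most of the genes nevertheless lay on the higher side. The difference was positive for 18 of 25 genes and negative for 7, with a median of 0.38 and a range from -1.49 to 1.34. Over all tested probes 57% were positive and the median was 0.08. With 1 probe per gene, as for the members, the median over 12277 genes was 0.123. For 4 genes, Stard4, Insig1, Abcg1 and Mvk, all 3 cKO arrays lay above all 3 controls, as they did for 8.04% of all tested probes. For 0 of 25 the cKO arrays lay below all controls (4.01% of all tested probes). With 1 probe per gene these shares were 9.56% and 4.33%. Abcg1 was detected in cKO alone, so it entered the test only through the group where it was high and had to differ. Among the 24 genes detected in both groups, 17 were positive with a median of 0.31, 3 had all cKO arrays above all controls, and 4 had p under 0.05 on the higher side. Of the 21605 tested probes detected in both groups, 7.4% and 4.09% did so. Mvk, counted among these 3 and these 4, was detected on only 1 control. With detection required on all 6 arrays, 20 genes were tested. All cKO arrays then lay above all controls for 2, Insig1 and Stard4, against 7.54% of tested probes. Because this is bulk RNA, fewer cells of a type and less RNA per cell cannot be told apart in any of these values.

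That lean rested largely on control replicate 3, the array that gave the lowest value for 15 of the 25 genes and for 41.4% of all tested probes. Without it the median of the 25 genes was 0.07, with 15 positive, and the median over all probes was -0.012. Without cKO replicate 1 as well, the median was 0.06, with 14 positive. With median scaling or with the deposited log2 values, only Insig1 and Abcg1 of the 25 had all cKO arrays above all controls (6.05% and 5.43% of all tested probes). Leaving out control replicate 1, control replicate 2 or cKO replicate 3 raised that number to 8, 7 and 7, against 23%, 14.3% and 16.8% of all tested probes. The median of the 25 genes was 0.59 without cKO replicate 3, 0.23 without cKO replicate 1 and 0.13 with array weights. Without the filter on dim probes Abca1 and Ggps1, not above background, were added. The median of those 27 genes was 0.24.

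**Figure D1:**
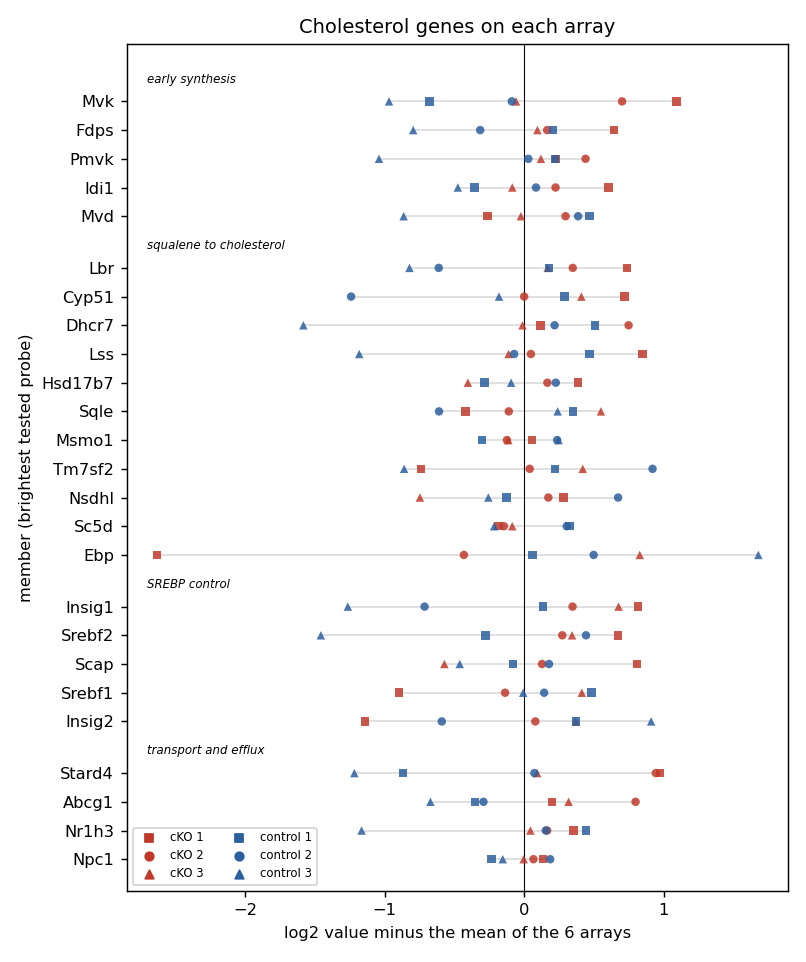
Each row is a cholesterol gene and each point 1 array, plotted as its log2 value minus the mean of the 6 arrays; red is cKO, blue is control, and the marker shape gives the replicate number. Control replicate 3 (blue triangles) is the lowest point for 15 of 25 genes, and the 3 red points stand clear of the blue ones for Mvk, Insig1, Stard4 and Abcg1.

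**Figure D2:**
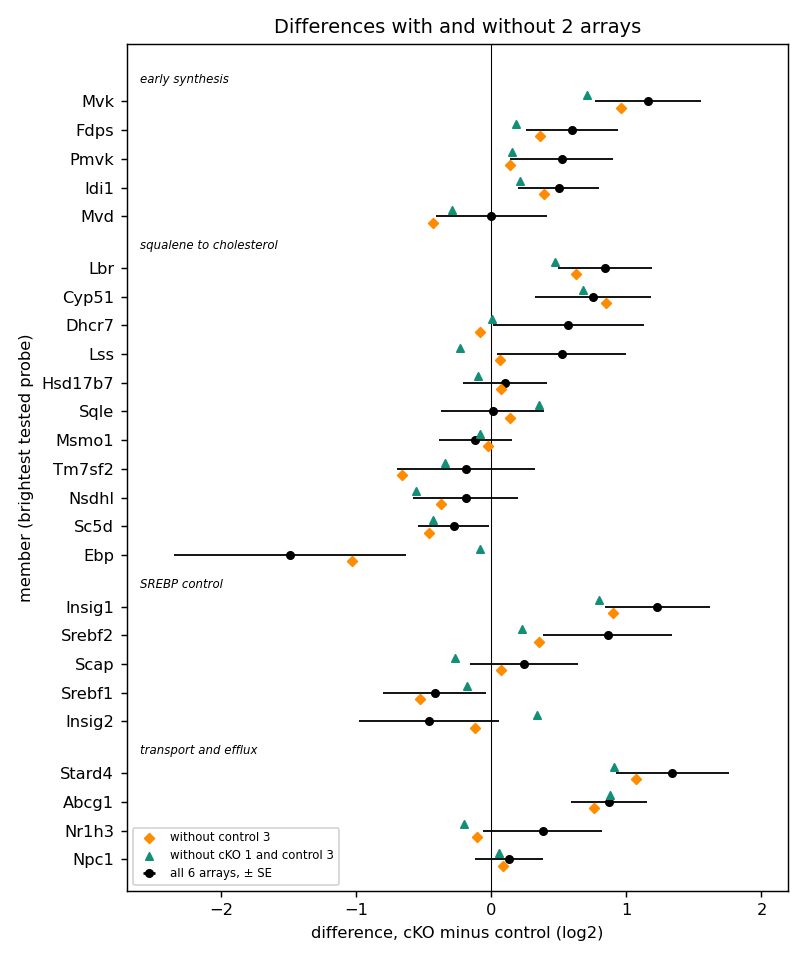
Black points are cKO minus control differences (log2) over all 6 arrays with ± 1 SE bars; diamonds leave out control replicate 3, and triangles leave out cKO replicate 1 and control replicate 3. Stard4, Insig1, Abcg1 and Mvk stay at 0.71 or above, while Ebp moves from -1.49 to -0.08 and Pmvk from 0.52 to 0.15.

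Early synthesis covers the steps from acetyl-CoA to squalene, with the branch to geranylgeranyl units. Of its 9 genes 5 were tested, and all 5 differences were positive or at 0.00, with a median of 0.52. The median was 0.36 without control replicate 3 and 0.18 without cKO replicate 1 as well. Mvk, mevalonate kinase, adds the first phosphate to mevalonate. Its probe read 6.61, 6.22 and 5.46 in cKO and 4.84, 5.43 and 4.55 in controls. The lowest cKO array stood only just above the highest control, and the probe was above background on 3 cKO arrays and 1 control. The group means were 6.10 ± 0.58 and 4.94 ± 0.45 (SD, n = 3 each), a difference of 1.16 ± 0.39 (limma p 0.0195, adjusted p 0.643). Because 2 of the 3 controls were not above background, no fold is given.

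Pmvk, the kinase that acts after Mvk, read 7.70, 7.91 and 7.59 in cKO and 7.69, 7.50 and 6.43 in controls. Control replicate 3 alone was low. The difference was 0.52 ± 0.38 (limma adjusted p 0.766), and 0.14 without that array. Idi1, the isomerase of the isoprenoid unit, read 7.05, 6.67 and 6.36 against 6.09, 6.53 and 5.97. The groups overlapped through control replicate 2, and the difference was 0.50 ± 0.30 (limma adjusted p 0.766). Mvd, the decarboxylase between them, showed 0.00 ± 0.41.

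Fdps, farnesyl diphosphate synthase, builds the precursor of both squalene and prenyl groups. Its brightest probe read 11.23, 10.75 and 10.68 in cKO and 10.79, 10.27 and 9.79 in controls. Control replicate 1 lay within the cKO range, and the difference was 0.60 ± 0.34 (limma adjusted p 0.766). A dimmer Fdps probe, detected on 2 arrays of each group, differed by only 0.05 ± 0.26. Without control replicate 3 the brightest probe gave 0.36. Ggps1, which makes the longer geranylgeranyl unit, was not above background on any array.

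The squalene-to-cholesterol steps showed no common direction: all 11 genes were tested, 6 were positive and 5 negative, and the median was 0.01. Lbr, the lamin B receptor, is a sterol reductase of the inner nuclear membrane that also ties down chromatin. It read 11.20, 10.81 and 10.63 on the cKO arrays and 10.64, 9.85 and 9.64 on the controls. Only cKO replicate 3 and control replicate 1 crossed, and barely. The means were 10.88 ± 0.29 and 10.04 ± 0.53 (SD, n = 3 each), and the difference was 0.84 ± 0.35 (limma p 0.0443, adjusted p 0.763). It was 0.47 without cKO replicate 1 and control replicate 3. Tm7sf2 encodes the other reductase for the same bond, and its difference was -0.19 ± 0.51. The Tm7sf2 probe was detected on 2 arrays of each group.

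Cyp51, the demethylase that starts the trimming of lanosterol, read 9.81, 9.09 and 9.50 against 9.38, 7.85 and 8.91. Here control replicate 2 was the low array, and the difference of 0.75 ± 0.43 (limma adjusted p 0.766) was 0.32 without it. Lss, which closes the ring to lanosterol, read 8.57, 7.77 and 7.61 against 8.19, 7.65 and 6.54, with a difference of 0.52 ± 0.48 (limma adjusted p 0.773). Another, dimmer Lss probe, detected on 3 arrays, gave -0.05 ± 0.29.

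Ebp, the sterol isomerase, had the most negative difference of the genes. It read 7.62, 9.82 and 11.08 in cKO and 10.31, 10.75 and 11.93 in controls. The cKO arrays spread widely, with replicate 1 far below the rest, and cKO replicate 3 lay inside the control range. The difference was -1.49 ± 0.86 (limma adjusted p 0.766). It was -0.55 without cKO replicate 1 and -0.08 without control replicate 3 as well.

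Dhcr7, the final reductase to cholesterol, read 8.57, 9.20 and 8.44 against 8.96, 8.67 and 6.87. Its positive difference of 0.57 ± 0.56 was -0.08 without control replicate 3, where the value was low. The remaining members lay close to 0. Sqle, which puts the oxygen on squalene, gave 0.01 and Hsd17b7, a keto-reductase, 0.10. The C4 demethylation enzymes Msmo1 and Nsdhl gave -0.12 and -0.19, and the desaturase Sc5d gave -0.28. The Sc5d probe was near background, detected on 1 cKO array and 3 controls.

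Some Nsdhl and Sqle probes were detected on 1 array alone. The tested Nsdhl probe read 6.85, 6.74 and 5.82 in cKO and 6.44, 7.24 and 6.31 in controls. On control replicate 3, 3 further Nsdhl probes read 8.39, 8.62 and 9.29, while on the other 5 arrays they stayed between 4.40 and 4.95, not above background. A Sqle probe read 7.57 there and 4.30 to 4.66 elsewhere. These 4 probes are among the 972 that stood out on that array, and 444 of the 972 were detected on it alone. None of the 4 was tested, and what raised them was not tested.

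**Figure D3:**
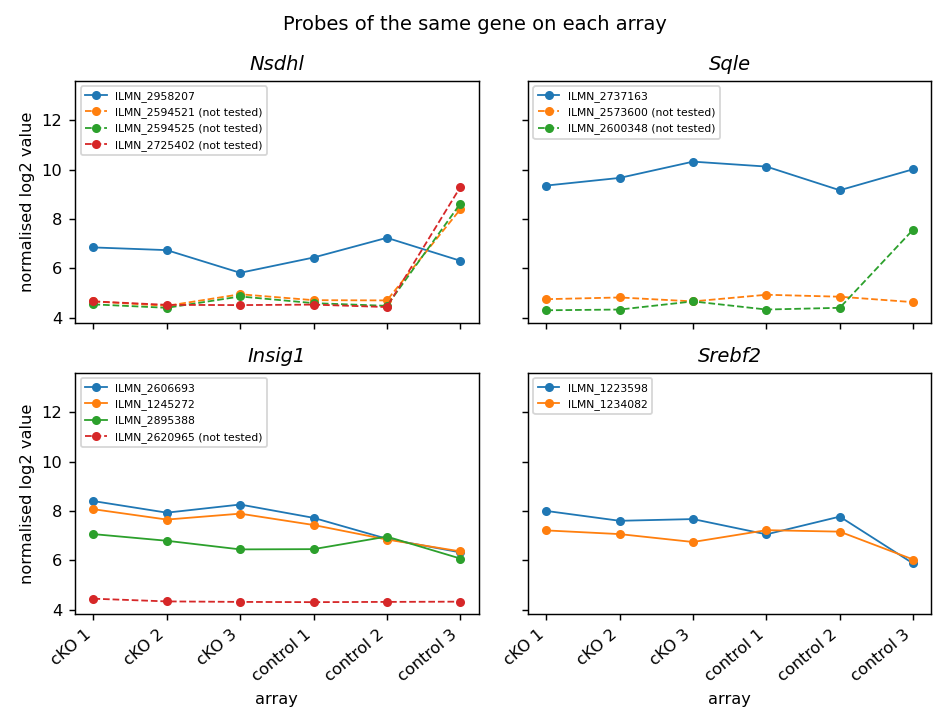
Normalised log2 values of every probe of Nsdhl, Sqle, Insig1 and Srebf2 across the 6 arrays; lines join the values of a probe, and dashed lines mark probes that were not tested. On control replicate 3, 3 Nsdhl probes reach 8.39 to 9.29 and a Sqle probe 7.57, from between 4.30 and 4.95 on the other arrays.

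Genes of SREBP control were mixed, with 3 positive, 2 negative and a median of 0.24 over 5. Insig1 encodes the retention protein that is itself a target of SREBP. Its brightest probe read 8.40, 7.93 and 8.26 in cKO and 7.72, 6.87 and 6.32 in controls. All cKO arrays lay above all controls. The means were 8.20 ± 0.24 and 6.97 ± 0.71 (SD, n = 3 each), and the difference was 1.23 ± 0.39 or 2.34-fold (limma p 0.0154, adjusted p 0.591).

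Insig1 had 4 probes, and they did not give the same size. Probe ILMN_1245272 read 8.07, 7.65 and 7.89 against 7.43, 6.84 and 6.36, again without overlap, and differed by 1.00 ± 0.34 (limma adjusted p 0.645). Probe ILMN_2895388 read 7.06, 6.79 and 6.44 against 6.45, 6.96 and 6.07, with overlap, and differed by 0.27 ± 0.33. The fourth was not above background on any array. Without control replicate 3 the brightest probe still differed by 0.90, and by 0.80 without cKO replicate 1 as well. Insig2, the paralog of Insig1, gave -0.46 ± 0.52 and, on another probe, -0.31 ± 0.52.

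Srebf2 encodes SREBP2, the main activator of cholesterol synthesis. It read 8.00, 7.60 and 7.67 in cKO and 7.05, 7.77 and 5.87 in controls. Control replicate 3 was again the low array, and control replicate 2 lay inside the cKO range. The difference was 0.86 ± 0.48 (limma adjusted p 0.766) with all arrays, 0.35 without control replicate 3, and 0.20 ± 0.38 on the other tested probe. Srebf1, whose products lean to fatty acid synthesis, read 4.38, 5.14 and 5.69 against 5.76, 5.42 and 5.27. That probe was near background, with a difference of -0.42 ± 0.38 (limma adjusted p 0.772). Scap, the escort, gave 0.24 ± 0.40.

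Transport and efflux held the gene with the smallest p-value. Of 7 genes 4 were tested, all positive, with a median of 0.63, or 0.42 without control replicate 3. Stard4 encodes a soluble protein that carries cholesterol between membranes. It read 9.19, 9.16 and 8.31 on the cKO arrays and 7.35, 8.29 and 7.00 on the controls. The groups did not overlap, but cKO replicate 3 and control replicate 2 nearly touched. The means were 8.89 ± 0.50 and 7.55 ± 0.67 (SD, n = 3 each), and the difference was 1.34 ± 0.42 or 2.53-fold (limma p 0.0148, adjusted p 0.579). It was 1.07 without control replicate 3 and 0.91 without cKO replicate 1 as well.

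Abcg1, an exporter that hands cholesterol to lipoproteins and a target of LXR, was detected on all 3 cKO arrays and on 0 controls. Its values were 5.40, 6.00 and 5.52 in cKO and 4.85, 4.91 and 4.53 in controls. Every cKO array was clear of the controls, with means of 5.64 ± 0.32 and 4.76 ± 0.20 (SD, n = 3 each). The cKO mean was at least 1.52-fold above the lowest signal that counted as detected on the control arrays, and the fitted difference was 0.87 ± 0.28 (limma p 0.0156, adjusted p 0.594). It was 0.76 without control replicate 3 and 0.88 without cKO replicate 1 as well. The partner exporter Abca1 was not above background on any array, so no difference can be given for it. Nr1h3, the LXR receptor with a tested probe, gave 0.38 ± 0.44, and -0.11 without control replicate 3.

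Npc1, the lysosomal protein that releases cholesterol taken up by endocytosis, had 7 probes, of which 4 were tested. They differed by 0.13, 0.36, 0.38 and 0.47, all in the same direction, and the brightest of them gave the smallest difference. None passed the test.

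The labels number the replicates alike in both groups but do not say what the number stands for. Deviations of same-numbered arrays from their group means correlated at 0.262, 0.410 and 0.473. However, cKO replicate 1 correlated as well with control replicate 2 (0.263). Pairs by number are therefore an assumption, drawn from these same data. Within these pairs 10 of the 25 genes were higher in cKO in all 3, against 26.7% of all tested probes, and 1 (Ebp) was lower in all 3, against 15.3%. The pair differences were 1.84, 0.87 and 1.31 for Stard4 and 0.55, 1.09 and 0.98 for Abcg1. They were 0.68, 1.07 and 1.94 for Insig1 and 1.78, 0.79 and 0.91 for Mvk. With that number as a block in the fit, limma again called 0 members, the smallest adjusted p being 0.201 for Stard4.

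A second list of 49 genes around the pathway was read in the same fit: lipoprotein receptors and lipases, sterol carriers, SREBP processing, fatty acid synthesis and oxysterol enzymes. Of its 38 tested genes 21 were positive and 17 negative, the median was 0.03, and limma called 0 at an adjusted p under 0.05. Before adjustment, limma's p was under 0.05 for 6 on the higher side and 1 on the lower, against 4.63% and 1.76% of all tested probes. Of the 6, 3 (Lpl, Star and Elovl6) were detected in cKO alone and so entered the test only through the group where they were high. The 4 with the smallest p-values were Lpl, Star, Vldlr and Cav1.

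Lpl, the lipase that frees fatty acids from lipoproteins, read 8.34, 7.13 and 6.92 in cKO. On controls it read 4.42, 4.48 and 4.57 and was not above background. It was at least 5.36-fold higher in cKO, with a fitted difference of 2.97 ± 0.40 (limma adjusted p 0.0618). Its adjusted p ran from 0.0103 (array weights) to 0.36 over the alternatives and was under 0.05 in 3, the others being 1 probe per gene (0.0241) and the mean of the probes (0.0231). With array weights cKO replicate 2 counted with a weight of 8.437 and the other arrays with 0.375 to 1.194, so that fit leans on 1 array.

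Star moves cholesterol into mitochondria for steroid synthesis and is a Leydig cell marker. It read 7.44, 6.44 and 6.14 in cKO and 4.53, 4.70 and 4.78 in controls, where it was not above background, and was at least 3.11-fold higher (limma adjusted p 0.151, and 0.0324 with array weights; from 0.0324 to 0.522 over the alternatives). Without the 2 arrays that stood apart the fitted differences were 2.57 for Lpl and 1.67 for Star. Vldlr, a lipoprotein receptor, read 7.28, 6.58 and 6.37 against 5.49, 5.62 and 5.24, a difference of 1.29 ± 0.32 (limma adjusted p 0.338). Cav1, the coat protein of caveolae and abundant in endothelium, read 8.41, 7.15 and 7.90 against 6.59, 6.39 and 6.30, a difference of 1.39 ± 0.36 (limma adjusted p 0.384). For all 4 genes, picked by smallest p, cKO replicate 1 was the highest array and the groups did not overlap. All cKO arrays lay above all controls for 7 of the 38 tested genes and 8.04% of all tested probes. Of the 7, Lpl, Star and Elovl6 were detected in cKO alone. Among the 35 genes detected in both groups the count was 4 (11.4%), against 7.4% of tested probes detected in both groups. Of the 200 tested probes detected in 1 group only, 78% had all cKO arrays above all controls.

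**Figure D4:**
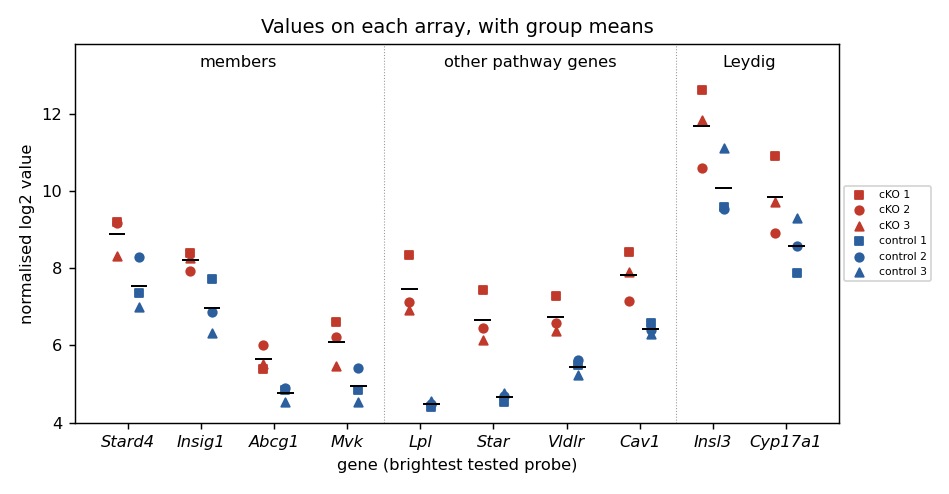
Normalised log2 values on each array (red cKO, blue control, shape for the replicate number) with a bar at each group mean, for 4 cholesterol genes, 4 other pathway genes and 2 Leydig markers. Lpl and Star lie at 6.14 or above on every cKO array and at 4.78 or below on every control, whereas the gap between groups is narrow for Mvk and Stard4.

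Markers of other testis cells also differed between arrays, and limma called none of those tested. Before adjustment, limma's p was under 0.05 on the higher side for 2 of 6 Leydig markers (Insl3, and Star, detected in cKO alone). It was so for 3 of 4 peritubular, 3 of 6 endothelial, 1 of 5 macrophage and leukocyte and 1 of 6 spermatogonia markers. For spermatocyte, spermatid and Sertoli markers it was 0. On the lower side, 1 macrophage and 1 Sertoli marker had p under 0.05. Over all tested probes these shares were 4.63% and 1.76%. Of 9 Leydig markers 6 were tested, with 4 positive and a median of 0.81, and their summed intensity ran from 2373 to 8641 in cKO and from 1311 to 3106 in controls. Insl3, a Leydig hormone and the largest term of that sum, read 12.61, 10.59 and 11.83 against 9.58, 9.54 and 11.11. Cyp17a1, an enzyme of androgen synthesis, read 10.89, 8.90 and 9.72 against 7.87, 8.58 and 9.30. Nr5a1, a regulator of steroid-making cells, went the other way, at 4.68, 5.54 and 7.54 against 6.85, 6.78 and 6.95. Hsd3b6 differed by -0.09 and Cyp11a1 by 0.37. The Leydig markers Hsd3b1 and Hsd17b3 had probes, but none was tested.

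Of 6 peritubular markers 4 were tested, all positive, with a median of 1.05 and sums of 3402 to 9903 in cKO and 1677 to 1996 in controls. Acta2 made up most of that sum, reading 13.19, 11.61 and 12.45 against 10.75, 10.50 and 10.59. Cnn1 and Tagln had no tested probe. Of 7 endothelial markers 6 were tested, all positive, with a median of 0.93 and sums of 478 to 1013 against 253 to 418. Kdr had no tested probe. All cKO arrays lay above all controls for 5 of 6 endothelial and 2 of 4 peritubular markers, against 8.04% of all tested probes. The macrophage and leukocyte list held 11 symbols, of which Emr1 is an older name of Adgre1. Of these 5 were tested, 4 positive, with a median of 0.68. Their sums ran from 2335 to 4006 in cKO and from 4512 to 5448 in controls. Mrc1, at -0.83, was the only tested one on the negative side and the largest term of the sum, reading 10.67, 11.73 and 11.65 against 12.03, 12.32 and 12.19. Cd74 had the largest difference of the list, 1.70 ± 0.31 (limma p 0.000819, adjusted p 0.143). In this list all cKO arrays lay above all controls for 2 markers and below them for 1. Csf1r, Ptprc, Lyz2 and Tyrobp had no tested probe.

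Germ cell markers were present as well. Of 7 spermatogonia markers 6 were tested, all positive, with a median of 0.65 and sums of 3385 to 4773 against 1906 to 3267. Spermatocyte markers (5 of 6 tested) had a median of 0.66 and sums of 33883 to 35917 against 28051 to 33780, and spermatid markers (6 of 7) a median of 0.10 and sums of 77134 to 102588 against 74961 to 93521. All 11 tested Sertoli markers of 15 were negative, with a median of -0.45 and sums of 38846 to 42869 against 42365 to 49924. The largest term of the sum was Dazl for spermatogonia, Ldhc for spermatocyte, Prm1 for spermatid and Cldn11 for Sertoli markers. The part of these cells in the values of the cholesterol genes was not tested.

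Array by array, the medians of the cholesterol genes and of the Leydig list took different orders. Whether Leydig RNA had a part in the cholesterol values was not tested. The median deviation of the 25 genes from their 6-array means was 0.28, 0.16 and 0.09 in cKO and 0.18, 0.14 and -0.67 in controls. For the Leydig list it was 1.20, -0.21 and 0.49 against -0.68, -0.20 and -0.02. Single genes could differ from their list. Across the cKO arrays Mvk and Stard4 fell in replicate order, as did other members such as Fdps, Lbr, Idi1 and Lss. Insig1 and Abcg1 did not. Of the tested Leydig markers Star and Cyp11a1 fell in that order, while Insl3, Cyp17a1, Nr5a1 and Hsd3b6 did not. On cKO replicate 2 the Leydig median was below the mean and the cholesterol median above it. Control replicate 3 was low for the cholesterol genes and near the mean for Leydig markers. The peritubular list was also low on control replicate 3, at -0.97, as were the endothelial (-0.74), macrophage (-0.65), spermatogonia (-0.55) and spermatocyte (-0.53) lists, the 5 tested genes of early synthesis, at -0.86, and all tested probes, at -0.26.

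**Figure D5:**
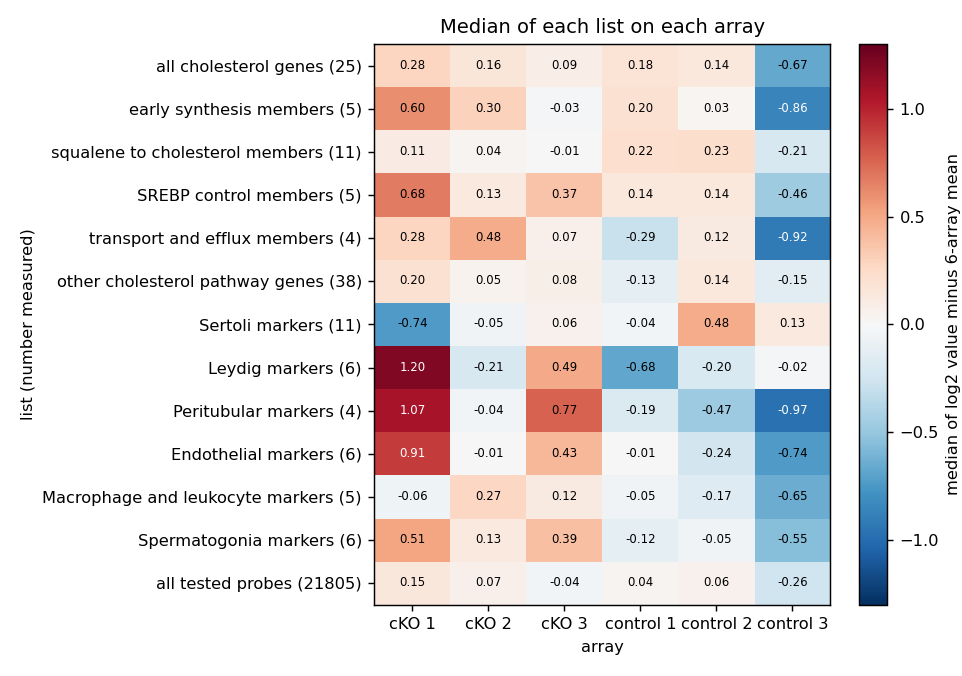
Each cell is the median, over the genes of a list, of the log2 value minus the gene's 6-array mean; columns are the 6 arrays, rows are gene lists with the number measured, and colour gives the value. For the 25 cholesterol genes control replicate 3 is at -0.67 and the other arrays are between 0.09 and 0.28.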

How the data were processed

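The authors deposited 1 table per array with, per the file headers, each probe's mean intensity, the standard deviation over its beads, a count of beads and a detection score. The submitters' processing notes name BeadStudio and give no version. The deposited series table holds log2 values, found here to be log2 intensity less the 75th percentile of the array, with each probe then centred on its median. It served to join probe IDs to intensities (45281 entries, each with 1 scanner probe of its own) and as an alternative. Its column medians were 0.244, -0.022 and -0.194 in cKO and 0.040, 0.098 and -0.301 in controls.

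In limma 3.58.1 (R 4.3.3), neqc (offset 16) corrected the background of the intensities and made their quantiles equal. Probes with a detection score over 0.95 on at least 3 of 6 arrays were tested: 21805 probes of 12277 genes. Groups were compared with lmFit and eBayes, two-sided, group only, with Benjamini-Hochberg adjustment over all tested probes at 0.05. The script was tested on simulated data. For a probe below background on all controls, "at least" sets the cKO mean against a floor averaged over control arrays: the dimmest detected signal, or the probe's own value where that was higher. The median probe had 43 or 44 beads per array, and the bead standard error of each member's brightest tested probe was at most 7.76% of intensity; the number of arrays limits the precision.

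The members and lists were chosen with earlier results of these data known. Values on every array are given for members called, for the 12 with the smallest p, for those whose probes disagreed, and for the 4 of smallest p among other pathway genes. Dhcr7, Nsdhl, Sqle, Insl3, Cyp17a1, Nr5a1, Mrc1, Acta2, Cldn11, Sox9, Amh, Trf and Dmrt1 were added after their values were seen. A single gene symbol was annotated for 34885 probes and several for 18; 10378 had none. Pairs by replicate number are an assumption, made because same-numbered arrays' deviations from their group means correlated at 0.262, 0.410 and 0.473. Of the unlike-numbered arrays, cKO 1 with control 2 reached 0.263 and the other 5 were negative. Deviations sum to 0 within a group, so some negative values had to occur and do not speak for pairing. The main fit uses no pairs, and the block is an alternative. Other alternatives changed the background correction, scaling, filter, probe choice, array weights and arrays used. Array weights were fitted gene by gene, a choice made after the default fit did not converge.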

Additional observations from a re-analysis of the deposited data

How the results depend on the processing

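The count of members called was 0 under all 17 alternatives, with a smallest adjusted p of 0.134 (Abcg1, array weights). The direction held under every alternative run for 14 of 25 members and turned for 11; the causes were not tested. Over all probes, limma called 31 higher: 56 with 1 probe per gene, 53 with the mean of the probes, 147 (and 2 lower) with array weights, which lean on cKO replicate 2 (weight 8.437), 13 without background correction, 12 with normexp at offset 50, 1 without the filter on dim probes, 0 with the replicate block (before adjustment, p under 0.05 for 1975 higher and 1282 lower), 6 without both cKO replicate 1 and control replicate 3, and 0 to 15 leaving out 1 array (0 without control replicate 1, 2 or 3, where before adjustment p was under 0.05 for 2016, 860 and 615 higher). The block changed no call among the members. Members with all cKO arrays above all controls numbered 2 with the deposited values and with median scaling (Abcg1, Insig1), 2 with detection on all 6 arrays (Insig1, Stard4; fewer genes tested), and 4 to 8 leaving out 1 array; 0 to 2 lay below when leaving out 1 array, and 2 (Mvd, Sc5d) without both. Other pathway genes called numbered 1 with 1 probe per gene, 1 with the mean of the probes and 2 with array weights. Leaving out 1 array or both, the median ran from -0.09 to 0.23 for the squalene-to-cholesterol members and from -0.00 to 0.59 for SREBP control.

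Differences turned as follows. Mvd was -0.0469 with the deposited values, -0.13 with median scaling, -0.0198 without background correction and -0.0213 with normexp; Msmo1 was 0.0219 with the deposited values and Insig2 0.0932 with array weights. Leaving out 1 array in turn, or both that stood apart, gave -0.43 to 0.24 for Mvd, -0.29 to 0.35 for Sqle, -0.23 to 0.89 for Lss, -0.66 to 0.23 for Tm7sf2, -0.56 to 0.13 for Nsdhl, -0.0959 to 0.32 for Hsd17b7, -0.0812 to 0.96 for Dhcr7, -0.27 to 0.59 for Scap, -0.87 to 0.34 for Insig2 and -0.20 to 0.69 for Nr1h3.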
